A study of Mus musculus with 21 samples.

Results

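The genes described here are 10 markers of pyramidal neurons of the hippocampal CA fields, chosen by name from a total of 55487 genes listed in the table of the study: Fibcd1, Wfs1, Mpped1 and Pou3f1 for CA1, Rgs14, Amigo2 and Pcp4 for CA2, and Iyd, Grik4 and Bok for CA3. They were picked by name, with earlier results of these data known. The pyramidal cell layer of the hippocampus is divided into the fields CA3, CA2 and CA1. CA3 cells receive mossy fibre input from granule cells of the dentate gyrus and project to CA1, CA1 provides the main output of the hippocampus, and the small CA2 field between them is known for its part in social memory. Each field is known for genes that it expresses more than its neighbours do, though several of them are also expressed in other regions of the brain, Pcp4 in the striatum among them. In RNA of a whole dissected hippocampus fewer cells of a type and less RNA per cell cannot be told apart.

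Poly-A RNA of the hippocampus of male wild-type C57BL/6 mice was sequenced at 10 weeks, with 1 library per mouse. The 9 mice of the maternal separation (MS) group were taken from the dam as whole nests for 4 hr per day between postnatal days 10 and 17, and also had nesting material withdrawn from the home cage. The 12 standard rearing (SR) mice stayed with the dam. Treatment was given to nests and not to single pups, and the labels name no nest. Mice carry a letter here, shared by 3 mice whose animal numbers follow each other and called a set, and a number within it. Sets A, B and C are MS, and D, E, F and G are SR. Sets C and G carried numbers in a later range than the other 5 sets. Litters were balanced to hold 3 males each, and males of a litter were caged together after weaning, so a set may be 1 litter, which the labels do not say. P-values over mice would then be too small.

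Libraries held 17276810 to 30449055 counts. The MS library A2 stood apart from the rest, with a score of 27.1 on the first principal component of the 500 most variable genes, where the other 20 libraries lay between -12.2 and 11.9. In A2 all 5 markers of dentate granule cells lay below every other library and all 6 markers of striatal medium spiny neurons above every other library. All of these genes but Tdo2 were among the 500 most variable genes, so their values restate the choice of A2. Of the 18077 genes tested in all 21 libraries, 16.5% lay below every other library in A2 and 17.8% above. The granule cell markers summed to 25.8 CPM in A2 and to between 204 and 486 CPM in the others (CPM, gene counts scaled by TMM-normalised library size). The striatal markers summed to 994 CPM in A2 and to between 34.4 and 318 CPM in the others. The comparison of MS with SR was made on the 20 libraries without A2, and A2 is described on its own.

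All 10 markers were measured in all mice. Levels of different genes were compared per kilobase of annotated exon, as the median over the 20 libraries. On this scale Mpped1, which encodes a metallophosphoesterase domain protein, was highest at 45.0 CPM per kb, followed by Wfs1 at 41.0, which encodes wolframin, a membrane protein of the endoplasmic reticulum. Bok, a member of the BCL-2 family, had 33.8 CPM per kb, and Fibcd1, a membrane receptor with a fibrinogen domain, had 33.5. Rgs14, a regulator of G-protein signalling that restrains synaptic plasticity in CA2, stood at 22.8 CPM per kb and Pou3f1, a POU-domain transcription factor, at 18.7. Grik4, a subunit of the kainate receptor, had 11.0 CPM per kb, Pcp4, a small calmodulin-binding protein, 9.61, and Amigo2, an adhesion protein with leucine-rich repeats, 8.30. Iyd, the iodotyrosine deiodinase, was lowest at 2.28 CPM per kb and rested on 47 to 146 counts per library. The highest and the lowest of the order thus differed far beyond the spread over mice, while neighbours such as Bok and Fibcd1, whose levels varied over mice by 21.9% and 24.0% (CV, n = 20), did not.

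Some levels are limited by the annotation. Pcp4 shares exon sequence on the same strand with a second gene model, Igsf5, which covers 243 of the 641 bases of transcript Pcp4-201 (37.9%), and reads falling in both models may not have been counted for either. The Igsf5 model held 1 count over all libraries. Exons of Pou3f1 overlap an antisense gene, Gm2164, over 330 bases, and those of Amigo2 overlap Pced1b over 58 bases. The library kit keeps strand, but whether strand was used in counting is not given in the sources used here.

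RefSeq promoter entries on GRCm38.p6 matched 8 of the 10 markers. The 250 bases before the start are shown for Fibcd1, Pcp4 and Iyd, the markers for which the values of A2 lay farthest from the other libraries, and capitals mark each CG pair and the TATAAA motif. They lie at chr2:31846006-31846255 (minus strand), chr16:96467356-96467605 (plus strand) and chr10:3540024-3540273 (plus strand), in that order.
Fibcd1: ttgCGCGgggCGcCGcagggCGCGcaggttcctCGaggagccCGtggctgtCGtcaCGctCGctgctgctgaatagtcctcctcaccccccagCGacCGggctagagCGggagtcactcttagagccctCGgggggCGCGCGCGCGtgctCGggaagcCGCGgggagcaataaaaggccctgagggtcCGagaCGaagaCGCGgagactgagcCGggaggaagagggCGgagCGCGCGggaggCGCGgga
Pcp4: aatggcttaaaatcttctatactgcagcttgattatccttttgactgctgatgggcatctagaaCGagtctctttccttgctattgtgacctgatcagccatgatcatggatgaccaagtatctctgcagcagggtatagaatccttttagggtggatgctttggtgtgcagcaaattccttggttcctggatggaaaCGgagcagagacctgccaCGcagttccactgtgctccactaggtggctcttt
Iyd: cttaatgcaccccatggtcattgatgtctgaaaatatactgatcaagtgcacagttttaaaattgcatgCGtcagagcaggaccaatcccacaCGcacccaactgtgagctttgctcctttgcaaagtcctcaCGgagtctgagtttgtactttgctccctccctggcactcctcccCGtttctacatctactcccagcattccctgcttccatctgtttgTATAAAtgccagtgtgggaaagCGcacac
The Fibcd1 promoter held 34 CG pairs. Of the 32851 mouse promoter entries, 3.53% held as many, and the median was 6. The promoters of Pcp4 and Iyd held 3 and 5. The other markers with an entry held between 12 (Bok) and 47 (Mpped1, whose other entry held 2). TATAAA, searched on both strands, was found for Iyd alone among the 8, starting 29 bases before the RefSeq start, though GENCODE M21 places a start of Iyd upstream of these letters. Of all entries, 12.4% held the motif. Pcp4 and Iyd thus held about as many CG pairs as the median promoter or fewer.

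To ask whether the CA fields differed after maternal separation, each marker was compared between 8 MS and 12 SR mice. No marker passed the test. The values of MS and SR mice overlapped for 10 of 10 markers. The share of all genes with such an overlap was not counted, so the overlap is a description only. In edgeR's quasi-likelihood test fitted to all 18146 genes tested, 0 of 10 markers passed an adjusted p of 0.05. At an unadjusted p under 0.05 it was also 0 of 10. Across all genes the same test called 2 genes (0.0110%), and 2095 genes (11.5%) had an unadjusted p under 0.05. Log2 fold changes of MS over SR in the 10 genes lay between -0.14 and 0.16, with 3 higher and 7 lower in MS and a median of -0.05, beside a median of 0.00084 over all genes tested.

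**Figure D1:**
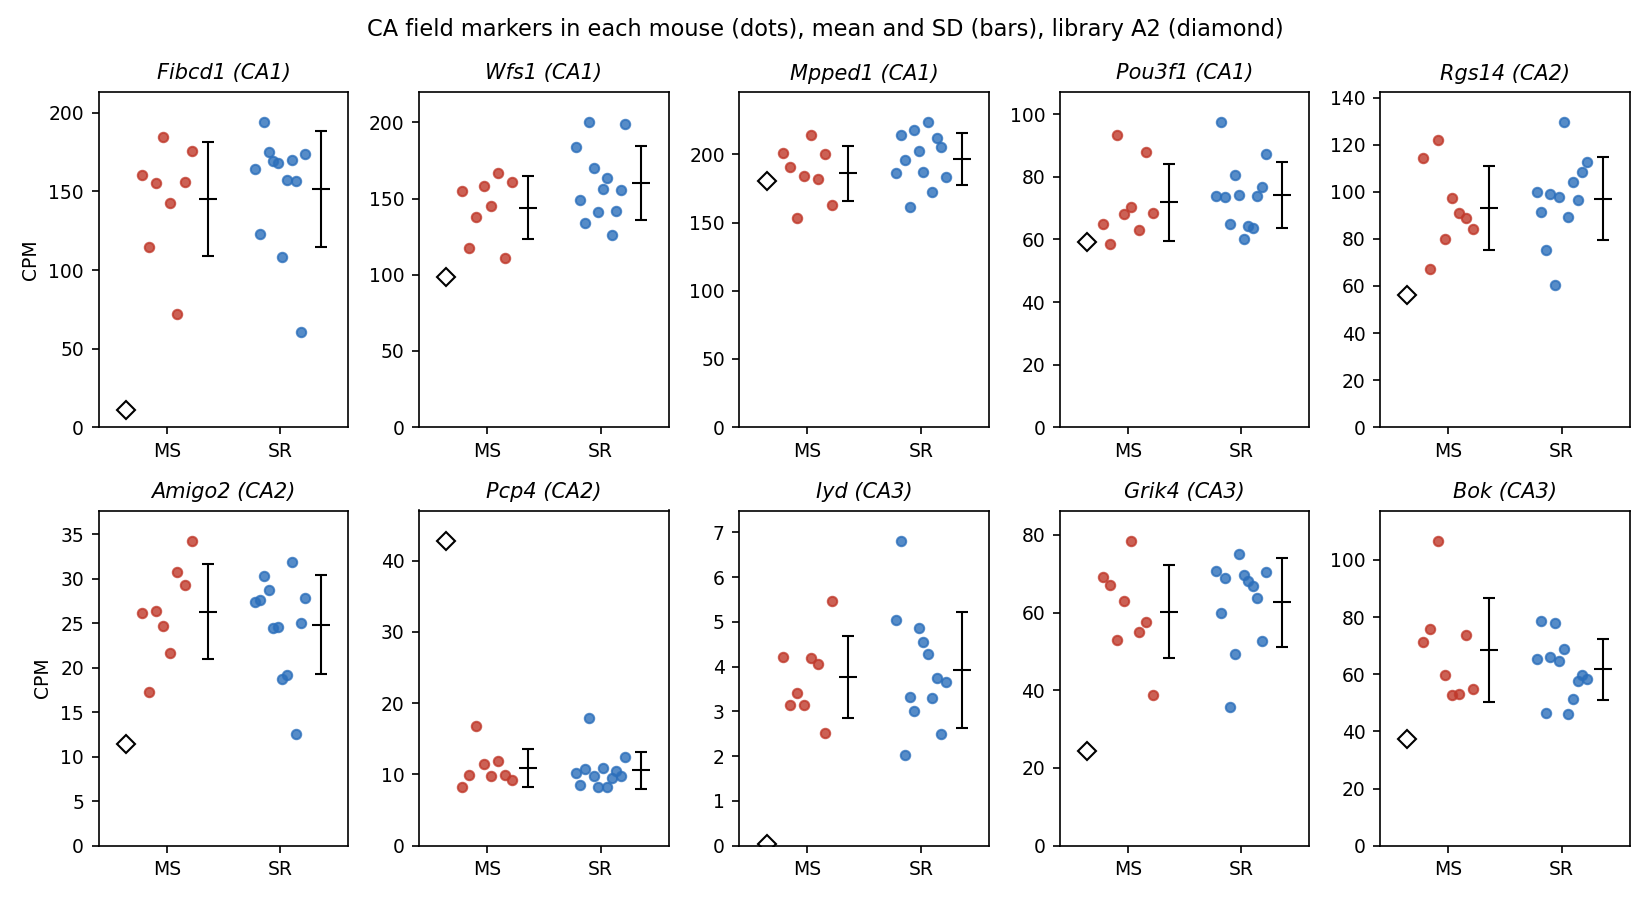
CPM of each of the 10 markers (vertical axes, from 0) in every mouse, MS in red and SR in blue, with mean ± SD over 8 MS and 12 SR mice beside the points and library A2 as an open diamond left out of that mean. Points of MS and SR overlap in each panel, Fibcd1 and Iyd of A2 lie near 0, and Pcp4 of A2 lies above all others.

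Among the CA1 markers, Fibcd1 had 72.1 CPM in the lowest MS mouse, a median of 156 and 185 CPM in the highest, and 60.7, 166 and 194 CPM in SR. The lowest mouse of each group (A1 in MS, E2 in SR) stood below the rest of its group, and the groups overlapped almost fully. The log2 fold change was -0.05 (95% interval -0.44 to 0.34, edgeR adjusted p = 0.944). Wfs1 ran from 111 through a median of 150 to 167 CPM in MS and from 126 through 156 to 200 CPM in SR. The SR mice E1, F3, D1 and G2 lay above the highest MS mouse, B2, and the lowest was the MS mouse C3, but the bulk of the groups overlapped. Its log2 fold change of -0.14 was the lowest of the 10 (95% interval -0.33 to 0.05, edgeR adjusted p = 0.579). Mpped1 was the steadiest marker, with 153, 188 and 214 CPM (lowest, median, highest) in MS and 161, 199 and 223 CPM in SR. Its interval was also the narrowest, from -0.20 to 0.06 around a log2 fold change of -0.07 (edgeR adjusted p = 0.700). Pou3f1 had 58.7, 68.3 and 93.3 CPM in MS and 60.2, 73.8 and 97.4 CPM in SR, with almost equal ranges. Its log2 fold change was -0.04 (95% interval -0.23 to 0.15, edgeR adjusted p = 0.918).

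Among the CA2 markers, Rgs14 had 67.2, 90.0 and 122 CPM in MS and 60.3, 98.4 and 129 CPM in SR. Here too A1 and E2 were the lowest mice of their groups. The log2 fold change was -0.05 (95% interval -0.30 to 0.20, edgeR adjusted p = 0.914). Amigo2 had 17.2, 26.3 and 34.2 CPM in MS and 12.5, 26.2 and 31.9 CPM in SR, with medians that were almost the same. Its log2 fold change was 0.09 (95% interval -0.22 to 0.40, edgeR adjusted p = 0.863). Pcp4 had 8.28, 9.86 and 16.8 CPM in MS and 8.21, 10.0 and 17.9 CPM in SR. A single mouse of each group, B1 in MS and E2 in SR, lay above the rest for Pcp4. The log2 fold change was 0.05 (95% interval -0.24 to 0.34, edgeR adjusted p = 0.928).

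Among the CA3 markers, Iyd had 2.51, 3.73 and 5.46 CPM in MS and 2.02, 3.70 and 6.81 CPM in SR. The SR range enclosed the MS range, and the log2 fold change was -0.05 (95% interval -0.42 to 0.32, edgeR adjusted p = 0.951). Grik4 had 38.9, 60.3 and 78.4 CPM in MS and 35.8, 67.5 and 75.0 CPM in SR, with A1 and E2 again lowest. Its log2 fold change was -0.05 (95% interval -0.31 to 0.22, edgeR adjusted p = 0.929). Bok had 52.7, 65.5 and 107 CPM in MS and 46.2, 62.2 and 78.8 CPM in SR. The MS mouse C1 lay above all others for Bok, and the log2 fold change of 0.16 was the highest of the 10 (95% interval -0.11 to 0.43, edgeR adjusted p = 0.684).

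**Figure D2:**
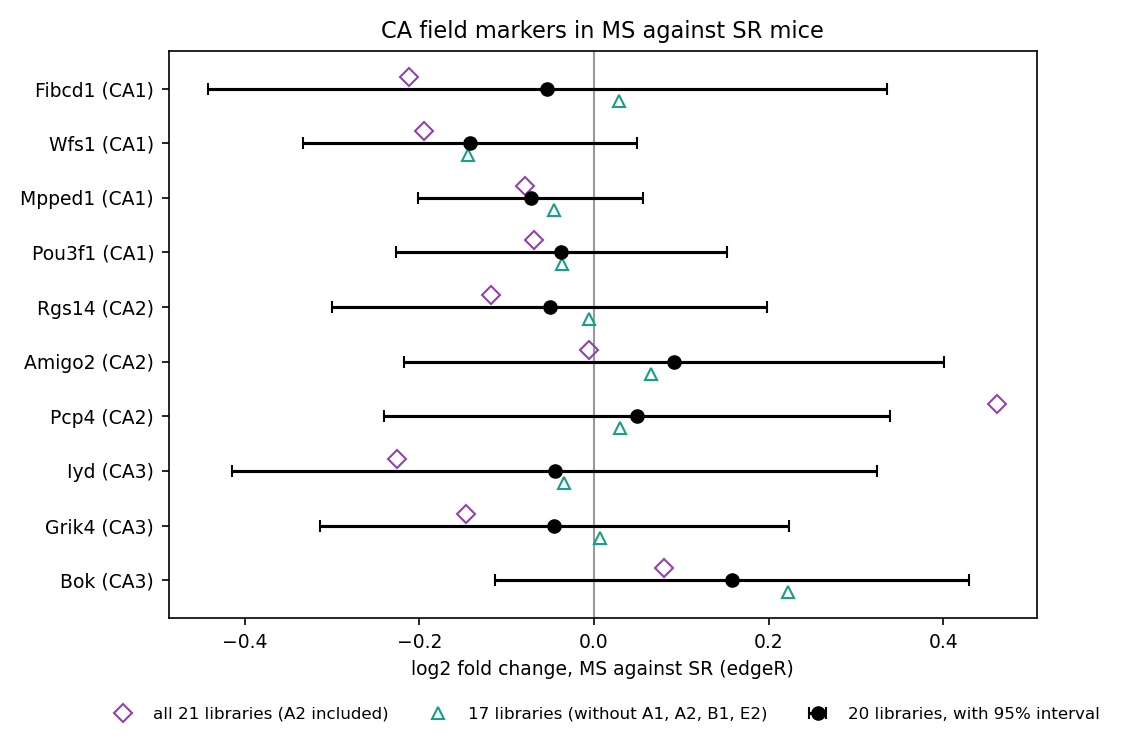
Log2 fold change of MS against SR by edgeR (horizontal axis) for each marker (vertical axis): black points with 95% intervals for the 20 libraries, purple diamonds for all 21 libraries with A2, green triangles for the 17 libraries without A1, A2, B1 and E2. Each black interval includes 0, and with A2 the value of Pcp4 moved to 0.46.

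A list of 16 further genes with known CA field expression had 0 of 16 genes passing the test (edgeR, 0 also at an unadjusted p under 0.05), 6 higher and 10 lower in MS and a median log2 fold change of -0.04. The gene with the smallest p in each field was Man1a in CA1, a Golgi mannosidase (log2 fold change 0.09, edgeR unadjusted p = 0.198, adjusted p = 0.647), Necab2 in CA2, a neuronal calcium-binding protein (0.16, unadjusted p = 0.196, adjusted p = 0.645), and Elavl2 in CA3, a neuronal RNA-binding protein (-0.05, unadjusted p = 0.239, adjusted p = 0.685). Markers of other cell types and of tissue next to the hippocampus did not pass the test either, and 3 of these lists had all of their genes on one side. All 5 markers of choroid plexus were higher in MS (log2 fold changes 0.80 to 1.08, edgeR adjusted p = 0.549 to 0.755), with sums of 51.6 to 4132 CPM in MS and 27.9 to 4437 CPM in SR. The median of the choroid plexus sum was 3231 CPM in MS and 823 CPM in SR. All 6 striatal markers were higher in MS (0.20 to 0.65, edgeR adjusted p = 0.732 to 0.897), with sums of 34.4 to 318 CPM in MS and 35.9 to 202 CPM in SR. The 318 CPM of B1 stood alone in MS, where the other 7 mice had at most 53.3 CPM, and the median of the sum was 40.6 CPM in MS and 43.3 CPM in SR. All 5 dentate markers were lower (-0.14 to -0.03, edgeR adjusted p = 0.731 to 0.973), with sums of 204 to 435 CPM in MS and 209 to 486 CPM in SR. With dentate and choroid plexus scores as terms in the fit, 0 of 10 CA field markers were called. Striatal markers as a term were not tested.

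The sets of mice within a rearing condition were compared next. A test over the contrasts between sets of the same condition called 6 genes of 18146 (0.0331%) and 0 of 10 markers by edgeR, with 1650 genes and 2 markers at an unadjusted p under 0.05. The call depends on the filter: without a filter on low counts, 7 of 10 markers and 1992 of 39023 genes were called. With 2 or 3 mice per set, a missing call does not show that sets were alike. Fibcd1 ranged from 109 ± 48.4 CPM in set E to 175 ± 18.7 CPM in set F (SD, n = 3 each). The 2 markers at an unadjusted p under 0.05 were CA3 genes, but this was not particular to CA3. Among the further CA field genes, named after their values were seen, Htr1a of CA1 (edgeR unadjusted p = 0.024) and Stard5 of CA2 (0.035) also fell under 0.05. So did Nectin3 (0.041) and Cdh24 (0.044) of CA3, while the rest of that list did not. Grik4 averaged 51.0 ± 17.1 CPM (SD, n = 2), 55.1 ± 2.32 (n = 3) and 71.6 ± 6.00 (n = 3) in the MS sets A, B and C, and 61.0 ± 8.97, 49.7 ± 14.0, 68.8 ± 1.99 and 70.9 ± 3.58 (n = 3 each) in the SR sets D to G. Sets C and G, of the later number range, thus had the highest mean of their group for Grik4, though set F of the earlier range came close to G. The edgeR adjusted p of 0.504 is for all contrasts between sets of a condition and does not test the number range. Bok averaged 63.2 ± 14.9 (SD, n = 2), 55.9 ± 3.58 (n = 3) and 84.5 ± 19.3 (n = 3) CPM in sets A to C and 57.8 ± 6.62, 53.7 ± 13.0, 67.8 ± 10.3 and 67.7 ± 9.28 (n = 3 each) in sets D to G (edgeR adjusted p = 0.536).

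The difference between MS and SR was also set side by side in the earlier and the later number range. The later range held only set C of MS and set G of SR, so rearing and set cannot be told apart there. Its intervals cover the spread of mice within these sets, and the comparison of the ranges shares this limit. In the earlier range (5 MS and 9 SR mice) 8 of 10 markers were lower in MS, with a median log2 fold change of -0.11. In the later range (3 MS and 3 SR mice) 8 of 10 were higher, with a median of 0.069. Over all genes tested the medians were -0.0012 and 0.0052. Several markers varied together over mice, so these counts are not of 10 independent genes. Rgs14 had a log2 fold change of -0.22 in the earlier range (95% interval -0.53 to 0.10) and of 0.17 in the later range (-0.04 to 0.37), and Iyd of -0.24 (-0.73 to 0.24) and 0.23 (-0.26 to 0.72). Bok had -0.01 (95% interval -0.29 to 0.26) in the earlier range and 0.33 (-0.03 to 0.69) in the later. The test of that difference between ranges called 0 of 10 markers and 0 of 18146 genes by edgeR (0.00%), with 1573 genes and 0 markers at an unadjusted p under 0.05, and adjusted p-values of the markers between 0.657 and 0.976.

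Over single mice the markers varied more than most genes of like level. The CV over the 20 libraries was 29.3% for Iyd, of which counting alone gives 10.9%, 24.0% for Fibcd1, 23.9% for Pcp4 and 21.9% for Bok. It was 21.1% for Amigo2, 18.4% for Grik4, 18.2% for Rgs14, 15.4% for Wfs1, 15.1% for Pou3f1 and 10.3% for Mpped1, where the median of all genes tested was 12.3%. Of genes within 1 log2 unit of its level, 98.7% varied less than Fibcd1 and 80.6% less than Mpped1, with the other 8 markers in between. The CA1 markers thus held both the most and the least variable gene for its level. The ratio of highest to lowest mouse was 3.37 for Iyd, 3.20 for Fibcd1 and 1.46 for Mpped1.

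The same mice were low for several markers. E2 was the lowest of the 20 libraries for 5 of 10 markers (Fibcd1, Rgs14, Amigo2, Iyd and Grik4), and A1 came next in each of these but Iyd. E2 had 60.7 CPM of Fibcd1, where the median of the 20 was 159, and 35.8 CPM of Grik4, where the median was 65.3. A1 had 72.1 and 38.9 CPM. Markers of the neocortical layers summed to 408 CPM in A1 and 373 CPM in E2, the highest of the 20 libraries, where the other 18 had 218 to 339 CPM. Fezf2 did not follow this sum, with 36.4 CPM in A1 and 36.2 CPM in E2, where its median was 37.7. The other neocortical markers lay above their medians in both mice, such as Cux2 with 121 and 96.0 CPM (median 52.0). Dentate markers summed to 204 and 209 CPM, the lowest of the 20. Pcp4 was high where striatal markers were: E2 had 17.9 CPM of Pcp4 and a striatal sum of 202 CPM, B1 had 16.8 CPM and 318 CPM, and the other 18 libraries had at most 12.4 CPM and 75.4 CPM. Pcp4 is itself abundant in the striatum. B1 also had the highest sum of thalamus markers, 79.9 CPM, ahead of C3 with 68.6 CPM. In C3 only Prkcd was high (59.7 CPM, median 31.3), and Tcf7l2 and Lef1 lay below their medians. B1 was highest for Tcf7l2 (22.5 CPM, median 5.95) and had 52.7 CPM of Prkcd and 4.75 CPM of Lef1 (median 4.03). The part of neighbouring tissue in these marker levels was not tested. Without A1, B1 and E2, a choice made after seeing the data, 0 of 10 markers were called in MS against SR, and Fibcd1 and Grik4 had log2 fold changes of 0.03 and 0.0068.

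**Figure D3:**
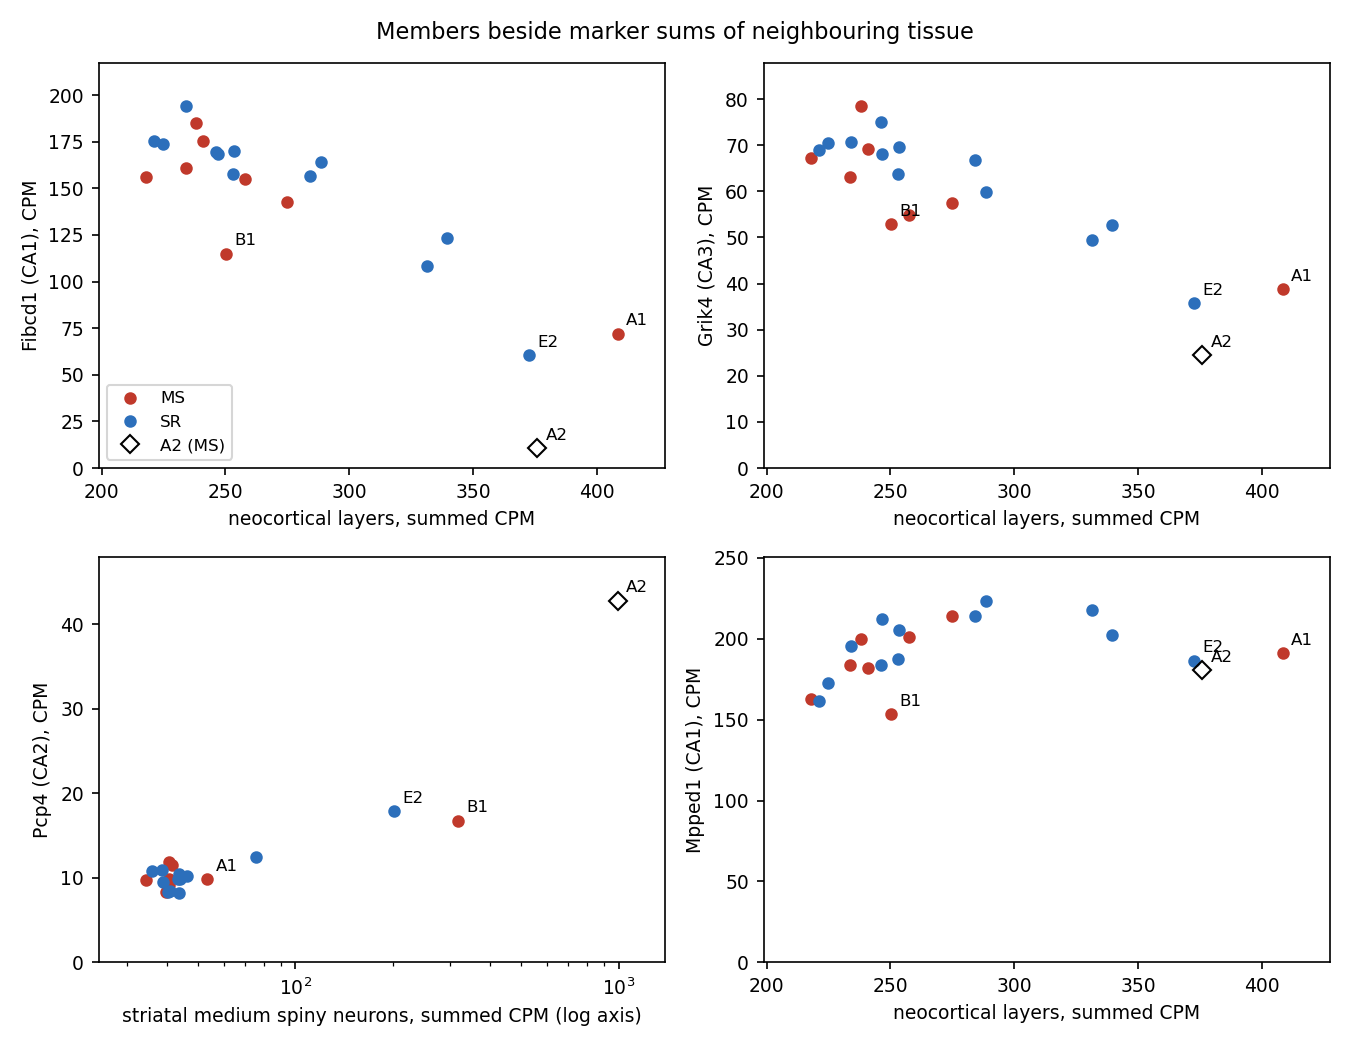
CPM of Fibcd1, Grik4, Pcp4 and Mpped1 (vertical axes, from 0) against the summed CPM of neocortical or striatal markers (horizontal axes, logarithmic for striatal markers), 1 point per mouse, MS in red, SR in blue, A2 as an open diamond. A1 and E2 lie at high neocortical sums and low Fibcd1 and Grik4, Pcp4 is high where the striatal sum is high, and Mpped1 stays between 153 and 223 CPM in the 20 libraries.

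Likeness between genes was measured as Pearson's r of log2 CPM over the 20 mice and is given as a description, since mice of a set may share a nest and all genes share the libraries. Of the 45 pairs of markers, 19 had r above 0.5 and 16 had r below 0. The share over all pairs of genes was not counted. For Fibcd1 an r of 0.51 (with Avpr1b) ranked only 2127 of 18145, so values above 0.5 were not rare for it. Pooled over the fields, markers of the same field were no more alike than markers of other fields. The median r was 0.24 over 12 pairs of the same field and 0.22 over 33 other pairs. The fields differed in this. CA3 pairs ran from 0.67 (Iyd with Grik4) to 0.79 (Iyd with Bok), and Rgs14 with Amigo2 of CA2 had 0.69. CA1 pairs ran from -0.37 (Mpped1 with Pou3f1) to 0.49 (Fibcd1 with Pou3f1). The most alike pair crossed fields, Fibcd1 of CA1 and Grik4 of CA3 (r = 0.96, Spearman's rho 0.93), followed by Rgs14 with Iyd (0.88, CA2 and CA3) and Rgs14 with Grik4 (0.87). Fibcd1, by contrast, had r = 0.15 with Wfs1 and 0.03 with Mpped1, both CA1 markers. Pcp4 was opposed to the other CA2 markers, with r = -0.55 with Rgs14 and -0.50 with Amigo2. Without A1, B1 and E2, 18 of 45 pairs had r above 0.5. There Fibcd1 and Grik4 had r = 0.88, Fibcd1 and Wfs1 had -0.53, and Pcp4 and Rgs14 had -0.25. Centred on the mean of each rearing condition, 19 pairs were above 0.5.

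**Figure D4:**
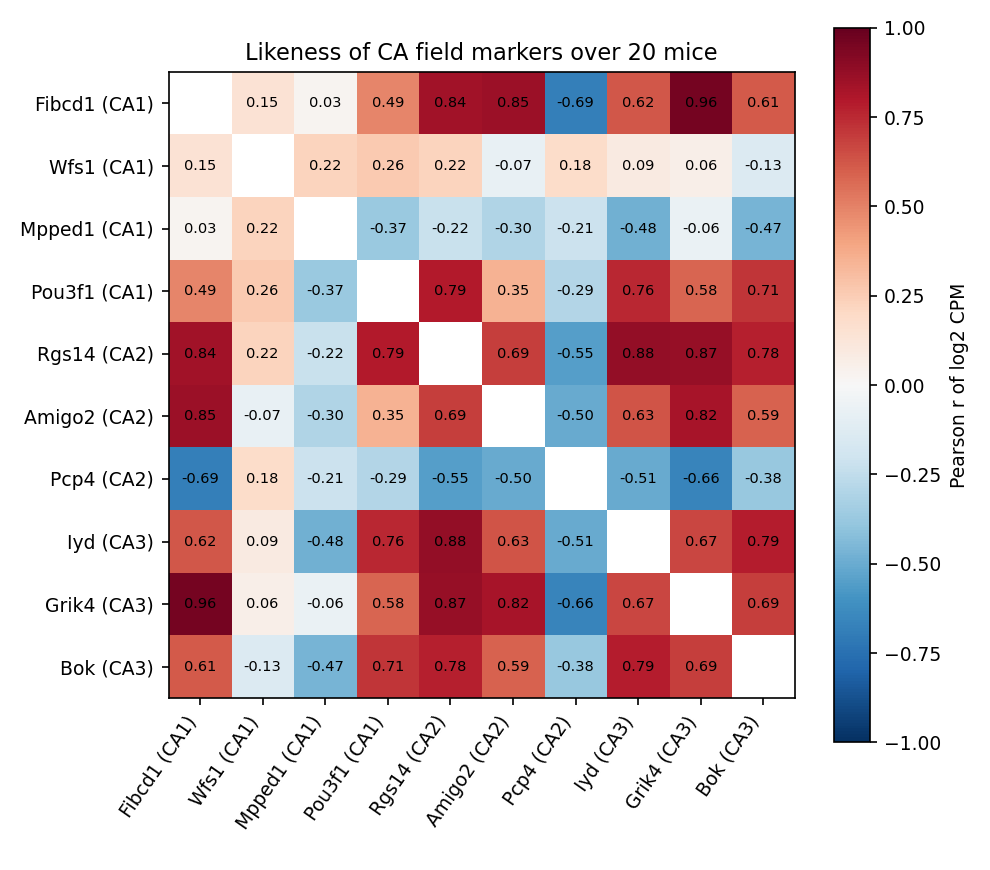
Pearson's r of log2 CPM over 20 mice for each pair of the 10 markers (both axes, ordered by field), red for positive and blue for negative r, with the value in each cell. Fibcd1, Pou3f1, Rgs14, Amigo2, Iyd, Grik4 and Bok are positive with each other across fields (0.35 to 0.96), while Wfs1, Mpped1 and Pcp4 stand outside it.

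Over all 18146 genes tested, the 5 genes most like Fibcd1 were Thsd4, Ap2a2, Stum, Arhgef28 and Slc9a2 (r = 0.96 to 0.97), and Grik4 ranked 10 of 18145. The 5 most like Rgs14 were Rab40b, Rogdi, Cabp7, Ncdn and Pfkl (r = 0.96 to 0.97). The 5 most like Iyd were Ippk, Anxa11, Rab40b, Actr3 and Eif4a1 (r = 0.90 to 0.93), with Rgs14 at rank 9. Pcp4 had r between 0.77 (Drd2) and 0.86 (Adora2a) with the 6 striatal markers, and between 0.04 (Rgs9) and 0.58 (Drd1) without A1, B1 and E2. Against the 6 neocortical markers, r ran from -0.94 (Tbr1) to -0.02 (Fezf2) for Amigo2, from -0.89 to 0.08 for Grik4 and from -0.89 to 0.14 for Fibcd1, with the same genes at both ends. For Mpped1 it ran from -0.15 (Foxp2) to 0.61 (Fezf2). Against the 5 granule cell markers, r was 0.85 to 0.95 for Rgs14, 0.76 to 0.88 for Iyd and -0.39 to -0.09 for Mpped1. The genes in parentheses are the ends of each range and were named after their values were seen.

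The library A2, labelled hippocampus of an MS mouse, was low for most CA field markers and high for one. It lay below all 20 other libraries for 7 of 10 markers (Fibcd1, Wfs1, Rgs14, Amigo2, Iyd, Grik4 and Bok), within their range for Mpped1 and Pou3f1, and above them for Pcp4. Of the 18077 genes tested in all 21 libraries, 2984 lay below all others in A2 (16.5%) and 3218 above (17.8%). A single library has no replicate, and Fibcd1, Pcp4 and Iyd were among the 500 genes by which A2 was set apart, so the values are a description.

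Iyd came to 1 count in A2, 0.90% of the median of the others (95% Poisson interval 0.02% to 4.99%, counting error only). Fibcd1 had 10.7 CPM from 324 counts, 6.75% of the median of the others. These 2 markers were more than 2-fold under the lowest of the other libraries, as were 219 genes in all (1.21%). Grik4 had 24.4 CPM (37.4% of the median of the others) and Amigo2 11.4 CPM (43.4%). Rgs14 had 56.1 CPM (57.9%), Bok 37.3 CPM (60.0%) and Wfs1 98.7 CPM (63.6%), where the lowest other library had 60.3, 46.2 and 111 CPM. Mpped1 had 181 CPM (93.4%) and Pou3f1 59.1 CPM (82.2%), so both kept a level within the range of the other mice. Pcp4 had 42.8 CPM, 4.33-fold over the median of the others and 2.39-fold over the highest, and was the only marker over 2 times the highest, as were 76 genes in all (0.420%). Within 1 field the share of the median that A2 held thus ran from 6.75% to 93.4% (CA1).

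**Figure D5:**
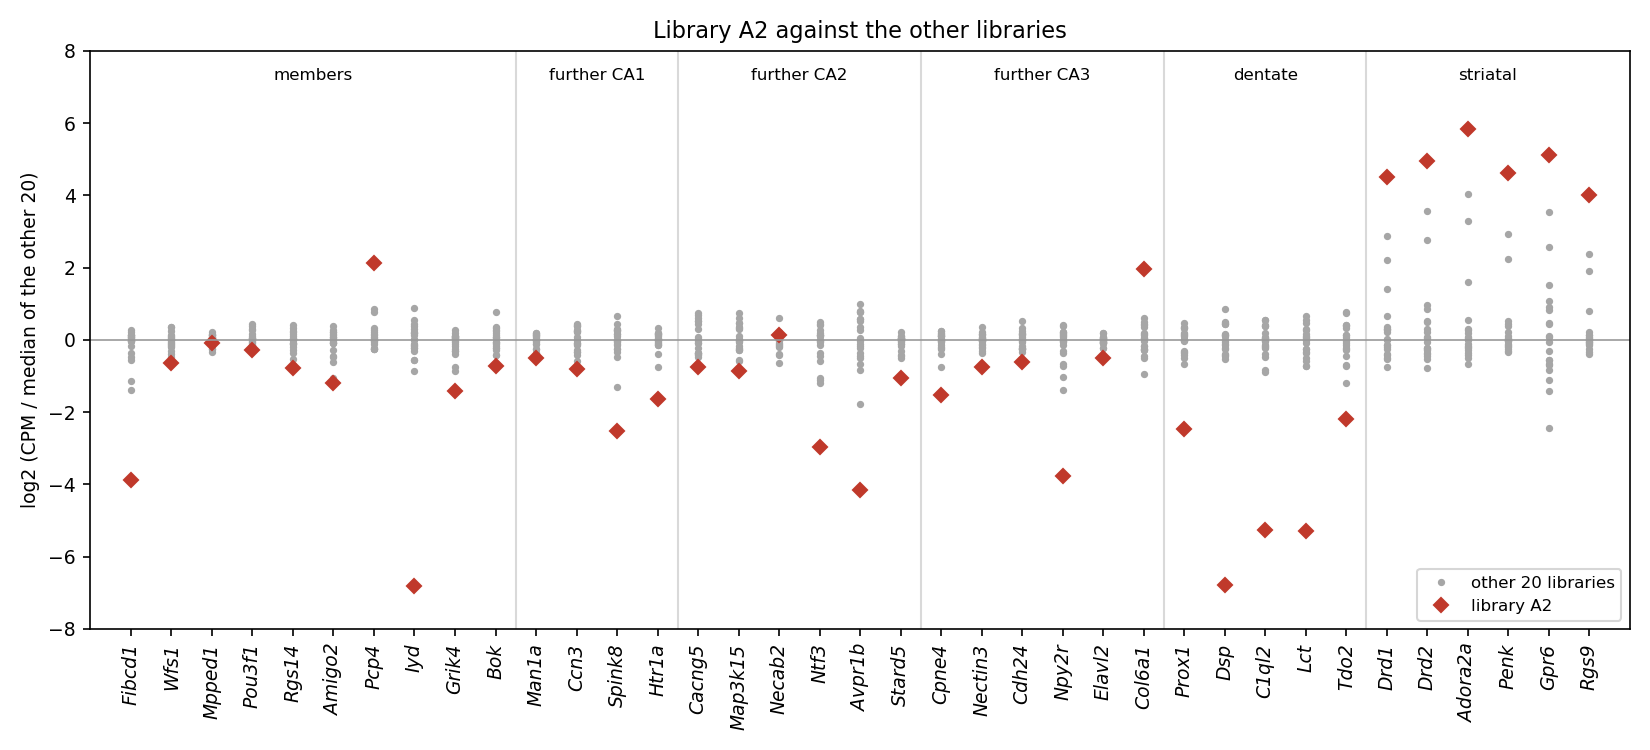
Log2 ratio of CPM to the median of the 20 other libraries (vertical axis) for the 10 markers, 16 further CA field genes, 5 dentate and 6 striatal markers (horizontal axis), A2 as red diamonds and the other libraries as grey points. A2 is far below for Iyd, Fibcd1, the dentate markers and some further CA field genes (Avpr1b, Npy2r, Ntf3 and Spink8). It is within the range for Mpped1, Pou3f1 and Necab2, and above for Pcp4, Col6a1 and the striatal markers.

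Of the 16 further CA field genes, 14 lay below all other libraries in A2. The exceptions, named after their values were seen, were Col6a1, which lay above (153 CPM against at most 60.4), and Necab2, which lay within (88.8 CPM, others 51.2 to 122). Of the 14, also named after their values were seen, the lowest were Avpr1b (5.66% of the median of the others, from 1 count) and Npy2r (7.37%). Ntf3 (12.9%) and Spink8 (17.6%) came next. Neocortical markers summed to 376 CPM in A2, above all others but A1. Of the 6, Tbr1 (98.4 CPM against at most 90.9) and Foxp2 (31.7 CPM against at most 15.7) lay above all other libraries, and the other 4 lay within their range. Among the other libraries Foxp2 was highest in B1 (15.7 CPM) and E2 (10.5 CPM), which also had the highest striatal sums. A1, with the highest neocortical sum and a striatal sum of 53.3 CPM, had 6.93 CPM of Foxp2. E1, with a striatal sum of 75.4 CPM, had 4.93 CPM. Which of the 2 lists Foxp2 followed was not tested. Choroid plexus markers summed to 12.9 CPM, below the lowest of the others. The choroid plexus markers, Npy2r, Col6a1, Cux2 and Foxp2 were also among the 500 genes by which A2 was set apart. The part of tissue other than hippocampus in the values of A2 was not tested. With A2 in the comparison of MS with SR, 0 of 10 markers were called by edgeR (1 of 18077 genes, and 2114 genes at an unadjusted p under 0.05), and the log2 fold change of Pcp4 moved from 0.05 to 0.46.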

How the data were processed

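The authors prepared strand-keeping poly-A libraries, aligned the reads to GRCm38 with STAR 2.7.3a and counted them per gene with featureCounts. They deposited 1 table of raw counts, not normalised or filtered, for 21 libraries and 55487 genes. Other settings were not given in the sources used here. Groups are the treatment stated for each mouse. The members and gene lists were chosen with earlier results of these data known.

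Counts were TMM-normalised, filtered with filterByExpr (minimum count 10) and tested with the quasi-likelihood test of edgeR 4.0.16 (robust, R 4.3.3), with Benjamini-Hochberg adjustment over all genes and a threshold of 0.05. The library farthest from the median in a PCA (DESeq2 1.42.0, 500 genes) was left out of the tests. The authors also removed 1 outlier, without naming it, and it may not be the same library. CPM was scaled over all 21 libraries, and log2 CPM used a prior count of 2. The computations were tested on simulated data. Libraries of 1 condition were compared by chi-square over genes, and the closest pair still differed beyond sampling noise (3.60 per degree of freedom). Named were the 10 markers, the 5 genes most like Fibcd1, Rgs14 and Iyd, the further CA gene of smallest p in each field, and genes said to be named after their values were seen. Marker lists were summed in CPM. The further CA list is given without 1 gene, which is not reported here, and its counts are over the other 16. Intervals cover the spread of these mice or, where said, counting error only. Alternatives were other libraries, filters, scalings, tests (limma 3.58.1) and terms.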

Additional observations from a re-analysis of the deposited data

Results flagged for a closer look

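Among the 9 MS libraries, A2 lay apart in 3 markers by Dixon's ratio, the gap of the extreme value to the nearest other divided by the whole range of log2 CPM. The ratio was 0.801 for Iyd, 0.669 for Fibcd1 and 0.571 for Pcp4. Each of the 10 markers was examined in MS with A2 and without it, which makes 20 groups that are not independent. The rate of about 1 group in 20 by chance does not apply here, since these 3 markers were among the 500 genes by which A2 was set apart, so the ratios restate that choice and support nothing more. Without A2 no marker was separated in the 8 MS libraries. Pcp4 stood at 42.8 CPM in A2, a library the tests of MS against SR did not use, above the SR libraries, which had at most 17.9 CPM.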

How the results depend on the processing

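In MS against SR, 0 of 10 markers were called in each of 39 alternatives, with adjusted p-values of at least 0.368. The number of genes called, 2 in edgeR, was 1 with all 21 libraries, without a filter on low counts and with dentate and choroid plexus scores as terms, 134 with DESeq2's Wald test, 230 in the earlier number range, and 0 in the later range, with counts summed within sets, with limma-voom and the set as a random block, and without A1, B1 and E2 (chosen after seeing the data). In these 4 settings 810, 1753, 1809 and 1827 genes had an unadjusted p under 0.05. Leaving out 1 library or set gave 0 to 340 genes: 340 without set C, 109 without C2 or C3, 0 without A1, A3, B1, B2, D2, E3, F1 or the sets A, B, D or F, and 1 to 3 in the others.

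Wfs1 and Mpped1 kept their sign throughout. The sign of the log2 fold change turned for Amigo2 with all 21 libraries (-0.0059), for Bok in the earlier range (-0.014), and in the later range for Fibcd1 (0.037), Pou3f1 (0.10), Rgs14 (0.17), Iyd (0.23) and Grik4 (0.026). It turned for Iyd with limma-voom (0.0031), with the dentate and choroid plexus terms for Pou3f1 (0.026), Rgs14 (0.017), Iyd (0.035) and Grik4 (0.0073), and without A1, B1 and E2 for Fibcd1 (0.028) and Grik4 (0.0068). With 1 library or set left out, values ran from -0.22 to 0.044 for Fibcd1, -0.14 to 0.015 for Pou3f1, -0.23 to 0.025 for Rgs14, -0.0051 to 0.16 for Amigo2, -0.11 to 0.18 for Pcp4, -0.24 to 0.11 for Iyd, -0.22 to 0.028 for Grik4 and -0.060 to 0.30 for Bok.

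Between sets, genes called rose from 6 to 1992 without a filter on low counts, with 7 markers (Fibcd1, Pou3f1, Rgs14, Amigo2, Pcp4, Grik4 and Bok), and to 166 with DESeq2, with 0 markers. Between number ranges, 1 gene was called without a filter and 19 with DESeq2. The cause was not tested. No paired analysis was possible because replicate numbers follow accession order only. Depth limits Iyd most, at 47 to 146 counts per library.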
